A study of Mus musculus with 24 samples.

Results

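This account covers 40 cell cycle and proliferation genes in mouse lung, chosen by symbol from textbook knowledge of S phase and mitosis and matched through their gene identifiers in the deposited count table. All 40 were found among 78275 genes in the table, and all 40 passed the filter on low counts that left 17490 genes for testing. By role, 15 act in S phase and DNA replication, 8 drive mitotic entry, 12 work on the spindle, chromosomes or cytokinesis, and 5 belong to the spindle checkpoint or the anaphase-promoting complex.

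The study used male C57BL/6 mice of 20 weeks, in 8 groups of 3 lungs each, with poly(A) RNA sequenced from whole lung. Controls (C) had no treatment. RIC mice were unexposed and had remote ischemic conditioning, in which blood flow to the left leg was stopped and restored in 3 cycles of 5 minutes each way, on 3 days a week for 4 weeks. DE mice breathed diesel exhaust for 30 minutes a day, 5 days a week, for about 8 weeks, a procedure that the labels describe as inducing features of pulmonary fibrosis. DE+PFD mice had the exhaust and oral pirfenidone, an antifibrotic drug, at 300 mg/kg a day on 6 days a week in 0.5% carboxymethylcellulose. RIC+DE mice had conditioning before the exhaust (preconditioning), and DE+RIC mice had it during the exhaust (perconditioning). The last groups combined the drug and exhaust with either timing, RIC+DE+PFD for conditioning before and DE+PFD+RIC for conditioning during exposure. No group is labelled as given carboxymethylcellulose without drug. The labels do not say whether each library is 1 mouse, so p-values measure the spread between these samples.

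In a dividing cell, cyclin E with its kinase and the E2F factors start the S phase genes: the MCM helicase is loaded by Cdc6, activated with Cdc45 and GINS, and followed by the Pcna clamp and by enzymes that supply nucleotides. In G2, the MuvB complex with B-Myb and FoxM1 turns on cyclins A and B, Aurora and Polo kinases and the spindle machinery, whose messages are then removed as cells leave mitosis. Adult lung is a slowly renewing tissue, and the cells in cycle there include alveolar type 2 cells, endothelium, alveolar macrophages and lymphocytes. In whole lung, more cells in cycle and more RNA per cycling cell cannot be told apart.

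Promoter sequences are shown because the members are known for a shared promoter code: E2F sites in S phase genes, and a CHR element (TTTGAA or TTCGAA) with CCAAT boxes in mitotic genes. RefSeq promoters (GRCm38.p6, 250 bases before to 50 after the start site) matched 32 of the 40 members. The 8 with no entry were Gins2, Foxm1, Ccna2, Mcm4, Ccne2, Kif20a, Aurkb and Tpx2. The lines below give the 150 bases before the start site of 8 genes, 5' to 3' on the gene's strand, with CCAAT boxes (CCAAT or ATTGG) and CHR letters (TTTGAA, its reverse complement TTCAAA, or TTCGAA) in capitals.
Mcm3, chr1:20820313-20820462, minus strand: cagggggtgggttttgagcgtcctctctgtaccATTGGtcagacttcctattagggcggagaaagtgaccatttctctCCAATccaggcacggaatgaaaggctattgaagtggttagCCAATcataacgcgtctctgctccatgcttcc
Pcna, chr2:132253181-132253330, minus strand: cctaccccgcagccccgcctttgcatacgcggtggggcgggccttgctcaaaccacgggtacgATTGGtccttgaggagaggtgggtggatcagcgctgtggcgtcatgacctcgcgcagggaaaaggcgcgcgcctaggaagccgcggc
Aurka, chr2:172370571-172370720, minus strand: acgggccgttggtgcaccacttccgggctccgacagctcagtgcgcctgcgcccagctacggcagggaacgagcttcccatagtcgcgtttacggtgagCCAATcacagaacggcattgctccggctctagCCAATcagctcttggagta
Ccnb2, chr9:70421555-70421704, minus strand: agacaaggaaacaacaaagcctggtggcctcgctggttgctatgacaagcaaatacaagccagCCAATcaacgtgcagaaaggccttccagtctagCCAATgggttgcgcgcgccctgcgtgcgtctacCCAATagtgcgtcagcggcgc
Mki67, chr7:135716380-135716529, minus strand: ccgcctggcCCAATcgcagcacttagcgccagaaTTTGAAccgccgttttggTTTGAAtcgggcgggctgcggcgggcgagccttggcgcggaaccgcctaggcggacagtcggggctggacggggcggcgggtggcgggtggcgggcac
Top2a, chr11:99024190-99024339, minus strand: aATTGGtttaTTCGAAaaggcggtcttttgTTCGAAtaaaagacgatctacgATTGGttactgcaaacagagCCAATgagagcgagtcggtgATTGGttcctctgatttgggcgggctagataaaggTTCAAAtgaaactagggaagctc
Cenpf, chr1:189688087-189688236, minus strand: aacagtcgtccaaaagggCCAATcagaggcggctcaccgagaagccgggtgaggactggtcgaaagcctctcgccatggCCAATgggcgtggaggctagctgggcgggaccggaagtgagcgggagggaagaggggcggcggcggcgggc
Bub1, chr2:127831860-127832009, minus strand: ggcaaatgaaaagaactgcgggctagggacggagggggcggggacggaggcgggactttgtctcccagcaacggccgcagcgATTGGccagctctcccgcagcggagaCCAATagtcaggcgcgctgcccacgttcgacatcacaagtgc

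CHR letters were found on either strand of the 300-base window in 16 of 20 members of the mitotic roles and in 3 of 12 replication members, against 19.2% of the 32851 promoters in the table. The CCAAT letters occurred in 18 of 20 and 9 of 12, against 37.4% of all promoters. E2F letters (TTTGGCGC, TTTCCCGC, TTTGCCGC or TTTCGCGC) were present in 5 of 12 replication members, Cdc6, Mcm3, Mcm5, Mcm6 and Mcm7, and in 1 of 20 of the others, Cdk1, against 2.3% of all promoters. In Mcm3 they lie in the part of the window past the start site, which is not printed, as do 1 run of CHR letters in each of Aurka, Ccnb2, Cenpf and Bub1. A match of letters is a description and not a measured site.

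Levels are given as CPM, a count scaled to the library total, after TMM scaling, and between genes per kilobase of exon. Exon length here counts every base in any annotated exon of the gene once. It can exceed the length of the gene's main transcript, and levels per kb then read too low. Pcna, the sliding clamp of the replication fork, was the most abundant member, at a mean of 31.8 CPM per kb over 24 libraries. The helicase subunits followed, with Mcm4 at 7.31, Mcm7 at 7.20, Mcm3 at 6.42, Mcm6 at 6.40 and Mcm5 at 4.08 CPM per kb. The highest mitotic genes were Cdc20, the activator of the anaphase-promoting complex, at 3.60 and cyclin B2 (Ccnb2) at 3.27 CPM per kb. Mki67, which encodes the Ki-67 antigen, and Top2a, the topoisomerase that untangles sister chromosomes, stood at 1.54 and 1.46 CPM per kb. The lowest level was that of the checkpoint kinase Ttk, 0.161 CPM per kb, from 1 to 15 reads per library. Biological coefficients of variation ranged from 14.9% for Mcm7 to 32.0% for Cdk1, and read counts from 259 to 1416 for Pcna but from 3 to 31 for Hmmr, with counting error largest in the genes of few reads.

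Library totals ran from 3906807 to 18494156 counts, and the labels carry a batch date: 9 libraries in March, 14 in October and 1 in November. All 3 DE libraries are of October and all 3 RIC+DE libraries of March, so that their difference rests on the batch term fitted in other groups. The November library, DE+RIC 3, has a batch term of its own, which leaves DE+RIC with 2 libraries in the fit. Lung epithelium markers (Nkx2-1, Sftpc, Ager, Scgb1a1 and Foxj1) summed to between 23940 and 232000 CPM over the 24 libraries, so the labelled tissue's markers were present in each. The highest sum was that of RIC+DE+PFD 1, and the other libraries reached at most 90240 CPM.

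2 libraries stood apart in the members, the first of them DE 1. The median member there was 0.45 above its 24-library median on the log2 scale, against -0.04 in DE 2 and 0.14 in DE 3. It was above the median for 35 of 40 members and the highest of 24 libraries for 10, among them Mcm2, Top2a, Ccna2 and the anaphase activator Cdc20. Below the median were Ccne2, Cdc6, Mcm4, Rrm1 and Kif23. Lymphocyte markers moved with them: all 7 T cell markers (Cd3e and Lck among them) and all 7 B cell markers (Ms4a1 and Cd79a among them) were highest of 24 in DE 1, summing to 307.4 and 672.1 CPM against at most 161.6 and 556.4 elsewhere. 5 of 5 markers of lymphoid tissue macrophages and stroma, such as Cd209b and Ccl19, were also highest there, at a sum of 200.8 CPM against 91.95 in DE 3, 9.39 in DE 2 and between 5.70 and 12.6 in the other groups. The germinal centre markers summed to 79.9 CPM in DE 1, within the 63.4 to 116.8 CPM of all libraries, but 4 of 5 were above their median there and 2 were highest of 24, with a median deviation of 0.474, the highest of the 24. Of 5 mast cell markers, 4 were highest in DE 1, with a median deviation of 2.97, and 6 of 7 neutrophil precursor markers were above their median. Markers of alveolar type 2 cells, lung epithelium and multiciliated cells were above their median for 0 of 6, 0 of 5 and 0 of 6, and those of blood vessel endothelium for 1 of 8. The part of these cells in the members' levels was not tested.

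The second was RIC+DE+PFD 1, whose TMM factor was 0.638 against 0.922 to 1.158 in the other 23. It was the highest of 24 libraries for 11 members and the lowest for 12. The 11 highest, among them Pcna, Gins2, Tyms, Ccnb2, Birc5 and Ube2c, had a median exon length of 4059 bases. The 12 lowest, among them Mki67, Top2a, Cenpf, Cenpe, Kif23 and the subunits Mcm2 to Mcm6, had a median of 7428.5 bases. The lengths overlapped, at 1531 to 6089 bases in the highest and 3589 to 15433 in the lowest. Mcm4 (3589), Mcm3 (3752) and Mcm5 (3993) were among the lowest and Tyms (6089) among the highest. The 17 members that were neither had a median of 4275 bases. Spearman's rho between a member's deviation and its exon length in RIC+DE+PFD 1 was -0.613 over the 40 members, and -0.549 over 16269 tested genes. As a description, the other 23 libraries gave between -0.444 and 0.503 over the members, with the 8 other March libraries between 0.141 and 0.503. Cell type markers also stood apart in RIC+DE+PFD 1. Those of lung epithelium, alveolar type 2 cells and erythroid cells summed to 232000, 86750 and 11920 CPM, each the highest of 24. Alveolar macrophage markers had the highest median deviation, 1.16. The lowest median deviations of fibroblast (-1.26) and blood vessel endothelium (-1.01) markers were also there. The part of gene length and of these cells in the members' levels was not tested.

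**Figure D1:**
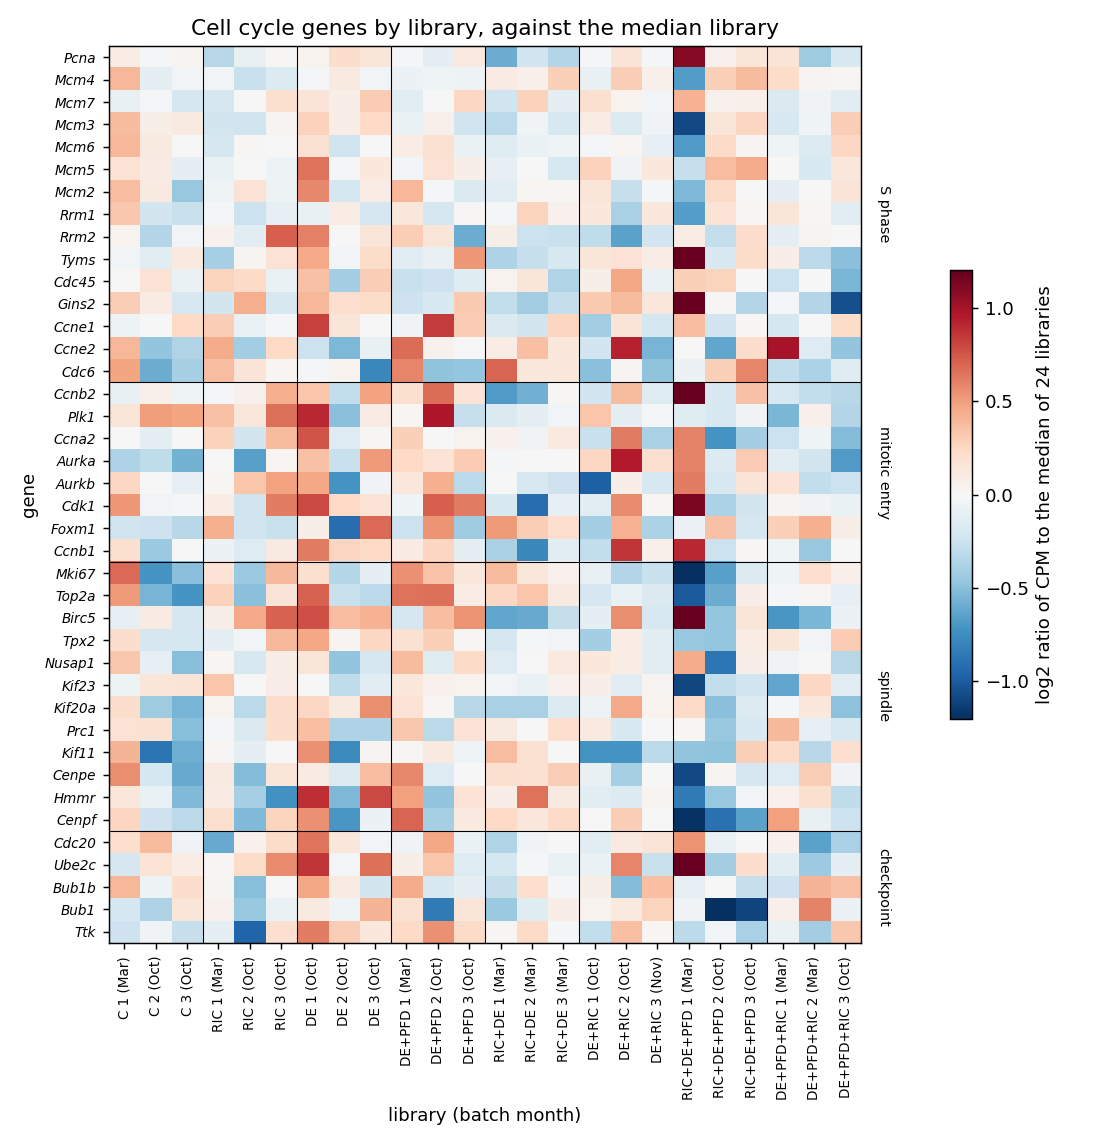
Each cell is the log2 ratio of a gene's CPM to its median over the 24 libraries (0.5 CPM added to both), with 40 genes in rows by role and 24 libraries in columns by group, the batch month in brackets; colours saturate at the ends of the scale. DE 1 is red over most rows, while RIC+DE+PFD 1 is dark red in 11 rows and dark blue in 12.

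**Figure D2:**
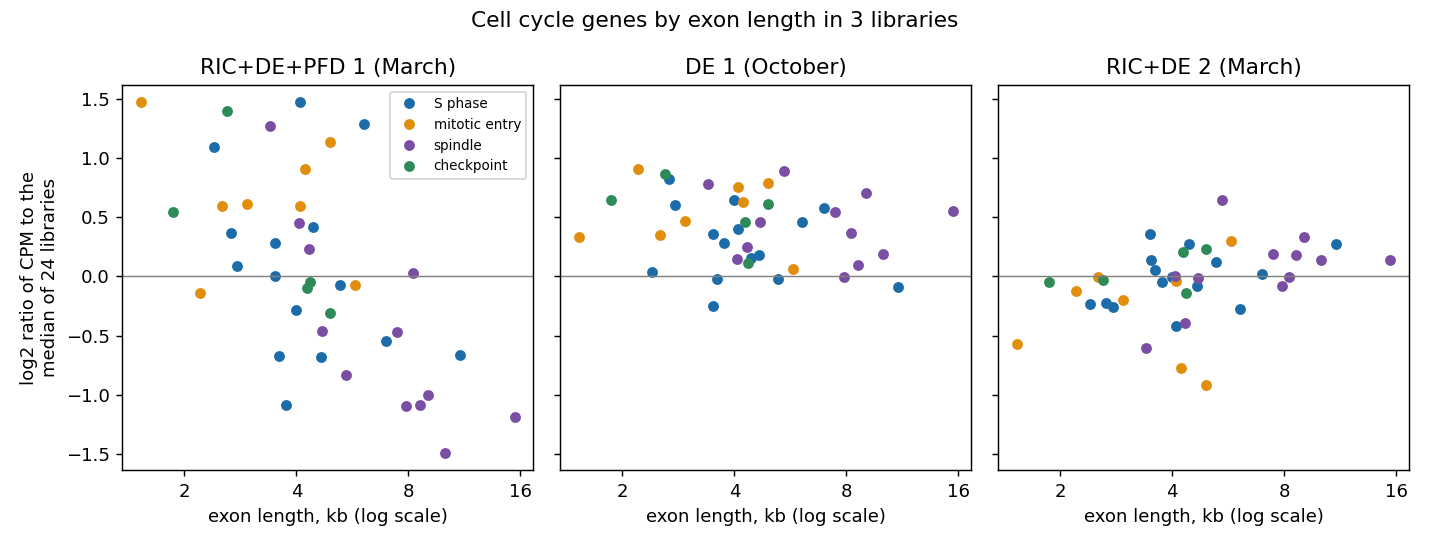
The same log2 ratio on the vertical axis is plotted against exon length on a log axis for the 40 genes, coloured by role, in 3 libraries. In RIC+DE+PFD 1 short genes tend to lie high and long genes low (rho -0.613), with exceptions. In DE 1 most genes lie above 0 at all lengths, and in RIC+DE 2 rho is 0.446.

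No member passed an adjusted p of 0.05 in edgeR's quasi-likelihood F test for any difference among the 8 groups, and neither did any of the 17490 genes (0%). Without adjustment, 3 of 40 members (7.5%) had p under 0.05, against 14.4% of all genes tested. The smallest adjusted p-values from edgeR were 0.279 for Aurora kinase A (Aurka), which matures the spindle poles, 0.28 for Pcna, 0.338 for Kif20a, a kinesin of cytokinesis, and 0.361 for Gins2, a subunit of the replicative helicase. DESeq2 on the same design called no member in the F test or in any comparison described here, with the exception of Pcna in the interaction of pirfenidone with preconditioning.

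The 4 standard readouts of proliferation overlapped between controls and exposed lungs. Mki67 was at 25.4, 9.41 and 10.9 CPM in C, at 17.9, 12.2 and 14.4 in DE, and at 5.26 in RIC+DE+PFD 1, the lowest of all. The highest control library, C 1, is of March and the other controls of October. Top2a read 18.5, 8.56 and 7.67 CPM in C against 21.3, 10.6 and 10.2 CPM in DE, and these groups overlap. Mcm2, a helicase subunit, was at 21.4, 17.7 and 11.9 CPM in C and at 24.8, 14.2 and 17.6 CPM in DE, which also overlap. Pcna was at 79.6, 73.7 and 76.5 CPM in C and at 76.9, 86.9 and 83.0 CPM in DE. In the DE minus C fit, the log2 change was 0.06 ± 0.352 (SE) for Mki67, with a 95% interval of -0.671 to 0.799. For Top2a it was 0.42 ± 0.351, with an interval of -0.316 to 1.15.

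**Figure D3:**
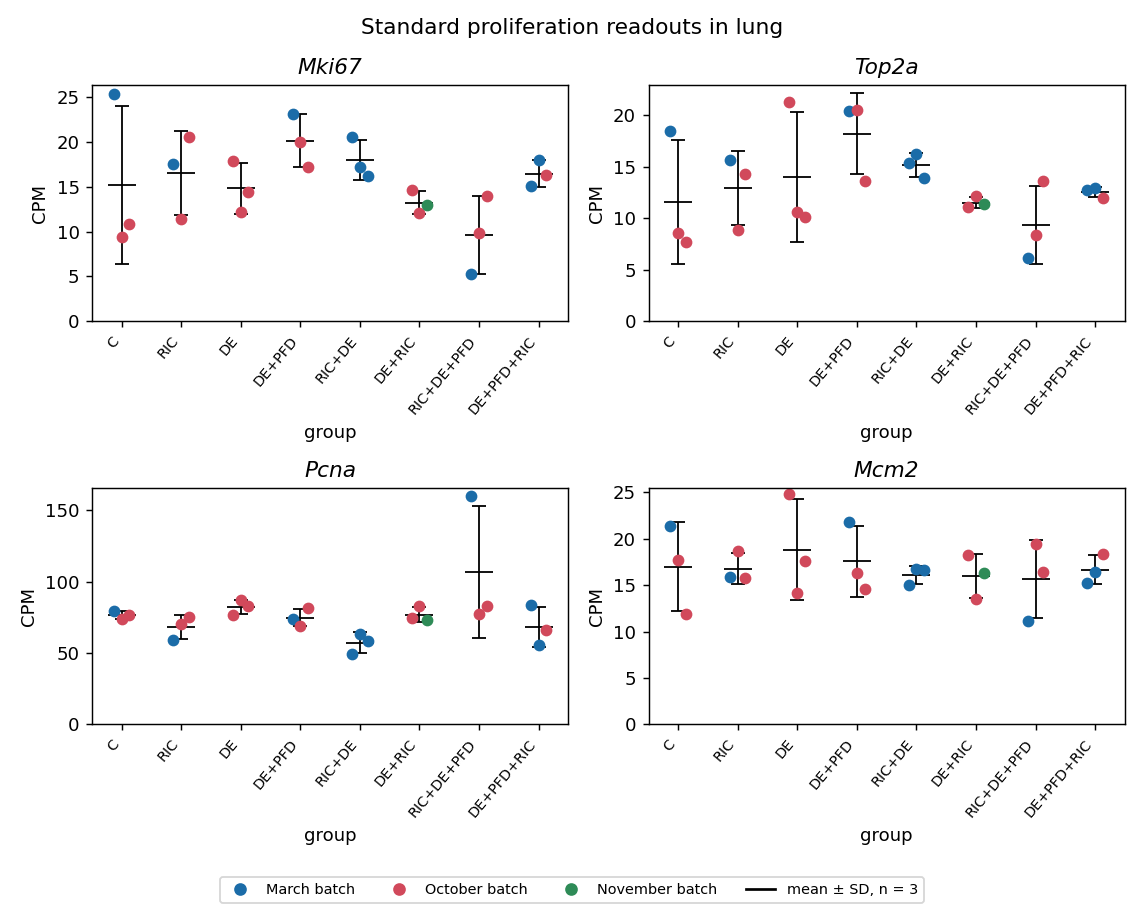
CPM of Mki67, Top2a, Pcna and Mcm2 in the 8 groups, each point a library coloured by batch, with the mean and SD over 3 libraries in black. Control Mki67 runs from 9.41 to 25.4 CPM, and the highest Pcna value, 160.2 CPM, is RIC+DE+PFD 1.

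The exposure itself was read from DE against C. Kif20a and Aurka had the smallest p, yet no member and no gene passed (0%; edgeR, smallest adjusted p of a member 0.988). Unadjusted p under 0.05 was seen for 3 members higher (7.5%: Kif20a, Aurka and Hmmr, a spindle-assembly factor) and 0 lower, against 1.95% higher and 1.38% lower over all genes. Of the 40, 35 had a fitted change above 0, with a median of 0.29 against -0.000574 over all genes tested. By role the medians were 0.16 for replication, 0.42 for mitotic entry, 0.30 for spindle and cytokinesis, and 0.51 for the checkpoint group. Without DE 1 the median over members was 0.03, with 22 of 40 above 0. Within the October batch alone it was 0.36.

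Kif20a was at 4.02, 2.41 and 2.16 CPM in C and at 4.15, 3.73 and 5.26 CPM in DE. The March control, C 1, overlaps the DE range and the October controls lie below it. Its log2 change was 0.81 ± 0.281 (edgeR, adjusted p 0.988), and 0.93 within October. Aurka was at 2.04, 2.17 and 1.73 CPM in C against 3.71, 2.23 and 4.21 CPM in DE, with every DE library above every control but DE 2 only just. The Aurka change was 0.88 ± 0.322 (edgeR, adjusted p 0.988), with 0.80 both within October and without DE 1. In all, 5 members (12.5%: Aurka, Mcm7, Ttk, Birc5 and Ccnb1) had all DE libraries above all controls, as had 7.59% of all genes tested.

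Conditioning without exposure, RIC against C, gave the smallest p to a pair of helicase subunits. No member and no gene passed (0%), and no member had an unadjusted p under 0.05, against 0.623% of all genes higher and 0.577% lower. The median over the members was 0.05, with 26 of 40 above 0, beside -0.00453 for all genes. All 8 mitotic entry members were above 0, by 0.03 to 0.34, and 6 of 15 replication members were. Mcm3 was at 31.8, 25.4 and 26.2 CPM in C and at 20.8, 20.4 and 24.9 CPM in RIC, groups that do not overlap. It was the 1 member (2.5%) lower without overlap, against 2.67% of all genes. Its log2 change was -0.36 ± 0.227, and that of Mcm6 was -0.27 ± 0.186 (edgeR, adjusted p 1 for both). Within October Mcm3 gave -0.18 and Mcm6 -0.05, while the members' median was 0.21 there. Without C 1, the March control, they gave -0.08 and -0.01.

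The next 5 comparisons all use the same DE libraries, so they are not independent of each other or of DE against C. Pirfenidone alone, DE+PFD against DE, gave a members' median of -0.09, with 14 of 40 above 0, against a median of -0.00575 over all genes. None passed in edgeR (0%), and 1 member (2.5%, Kif20a) had an unadjusted p under 0.05 and was lower, against 1.61% of genes lower and 1.23% higher. Kif20a was at 3.93, 3.47 and 2.61 CPM in DE+PFD, overlapping DE, with a log2 change of -0.60 ± 0.284 (edgeR, adjusted p 1). The helicase activator Cdc45 was at 3.17, 3.21 and 3.48 CPM in DE+PFD against 5.13, 2.83 and 4.91 CPM in DE. Its change was -0.44 ± 0.282 (edgeR, adjusted p 1) and -0.28 without DE 1. Without DE 1 the members' median turned to 0.04. Within October it was -0.09.

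Preconditioning, RIC+DE against DE, had the members' median at -0.32, with 8 of 40 above 0, beside 0.00439 over all genes tested. None passed in edgeR (0%; smallest adjusted p of a member 0.25). Unadjusted p under 0.05 was seen for 6 members (15.0%), all lower, against 9.47% of genes lower and 7.82% higher. They were Kif20a, Pcna, cyclin B1 (Ccnb1), Gins2, the mitotic kinase Cdk1 and survivin (Birc5), a subunit of the chromosomal passenger complex. Every RIC+DE library was below every DE library for 10 members (25.0%), as for 20.7% of all genes. The reverse held for 2 members (5.0%: Ccne2 and Cdc6), against 20.8% of all genes. No batch holds both groups, so no within-batch value can be given.

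Kif20a was at 2.50, 2.48 and 2.99 CPM in RIC+DE, all below the lowest DE library at 3.73. Its log2 change was -1.22 ± 0.321 (edgeR, adjusted p 0.25), and -0.69 when the 2 groups were fitted alone without a batch term. Pcna was at 49.2, 63.5 and 58.6 CPM in RIC+DE, again all below DE. The change in Pcna was -0.71 ± 0.257 (edgeR, adjusted p 0.274), -0.48 without RIC+DE+PFD 1 and -0.43 with the trend of counts on gene length removed, an alternative chosen after seeing the data. With that trend removed, Kif20a gave -1.28 and the members' median was -0.364. Spearman's rho between the members' deviations and exon length was 0.403 to 0.503 in the 3 RIC+DE libraries, while the 3 DE libraries gave -0.2, -0.221 and -0.277. With the 2 groups alone, Pcna (-0.51) and Birc5 passed, in a fit where 3784 genes did and batch and group cannot be told apart. Without DE 1 the members' median was -0.15. Skeletal muscle markers summed to 1949 and 1035 CPM in RIC+DE 1 and RIC+DE 3 against 26.7 in RIC+DE 2 and at most 47.4 in other groups. At an unadjusted p under 0.05 (edgeR), 5 of 5 skeletal muscle markers were higher in RIC+DE, with a median of 4.75. Lower were 5 of 5 markers of lymphoid tissue macrophages and stroma (median -3.67), 5 of 7 T cell (-1.09) and 5 of 7 erythroid markers (-1.27). So were 2 of 7 B cell (-0.837), 2 of 5 lung epithelium (-0.787) and 1 of 5 mast cell markers (-1.52). Also lower were 2 of 7 alveolar macrophage (-0.469), 2 of 6 alveolar type 2 (-0.57), 2 of 6 multiciliated cell (-0.0738) and 1 of 5 plasma cell markers (-0.439). The lymphoid tissue list was likewise lower against DE in DE+PFD (-3.05) and DE+RIC (-3.66), 5 of 5 in each. So were 5 of 7 T cell markers in each. In DE against C, 5 of 5 of the lymphoid tissue list (3.86), 4 of 7 T cell (0.809) and 4 of 5 mast cell markers (2.43) were higher. Of 7 alveolar macrophage markers 1 was higher and 1 lower there. Over all genes the shares were 1.95% higher and 1.38% lower. The part of gene length and of these cells in the members' changes was not tested.

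Perconditioning, DE+RIC against DE, gave a median of -0.12 over the members, with 10 of 40 above 0, and 0.00612 over all genes. None passed (0%), and 1 member (2.5%) had an unadjusted p under 0.05 and was lower, against 2.56% of genes lower and 0.669% higher. It was Rrm2, the regulated subunit of ribonucleotide reductase, at 4.38, 3.35 and 4.61 CPM in DE+RIC against 8.63, 5.51 and 6.14 CPM in DE. These ranges do not overlap, and it was the 1 member (2.5%) lower without overlap, against 6.03% of all genes. Its log2 change was -0.80 ± 0.337 and that of the spindle motor Kif11 was -0.86 ± 0.436 (edgeR, adjusted p 1 for both). Kif11 was at 2.63, 2.65 and 3.63 CPM in DE+RIC and at 6.99, 2.53 and 4.74 CPM in DE, so it overlapped. Without DE 1 the changes were -0.58 for Rrm2 and -0.45 for Kif11, and the members' median was -0.02. Within October that median was -0.13.

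With the drug and preconditioning, RIC+DE+PFD against DE, the members' median was -0.25, with 9 of 40 above 0, against 0.0427 over all genes. None passed (0%), and 5 members (12.5%) had an unadjusted p under 0.05, all lower: Bub1, Cenpf, Hmmr, Kif20a and Tpx2. Over all genes the shares were 5.52% lower and 4.00% higher. All 12 spindle and cytokinesis members were below 0, with a median of -0.57, while the replication members had a median of -0.01. Of the 12 spindle members, 6 were lowest of 24 in RIC+DE+PFD 1 and 4 were highest in DE 1. Their median was -0.34 without DE 1, with 8 of 12 below 0, -0.37 without RIC+DE+PFD 1, with all 12 below 0, and -0.21 without both, with 9 of 12 below 0. Without both, the replication members had a median of 0.135. Bub1, the checkpoint kinase, was at 2.69, 0.908 and 1.04 CPM in RIC+DE+PFD against 3.06, 2.68 and 3.86 CPM in DE. Its October libraries, at 10 and 9 reads, are the lowest of 24 in CPM, and RIC+DE+PFD 1 lies just inside the DE range. The change was -1.30 ± 0.385 (edgeR, adjusted p 0.33) and -1.72 without RIC+DE+PFD 1. Cenpf, a large kinetochore protein, was at 1.03, 1.36 and 1.73 CPM (8, 15 and 15 reads). In DE it was at 4.59, 1.64 and 2.81 CPM (42, 11 and 16 reads), so the groups overlap. It changed by -1.26 ± 0.396 in the fit (edgeR, adjusted p 0.355), by -0.79 without DE 1 and by -0.53 without DE 1 and RIC+DE+PFD 1. Without DE 1 the members' median was -0.000492. Within October it was -0.27.

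With the drug and perconditioning, DE+PFD+RIC against DE, 6 members (15.0%) had an unadjusted p under 0.05, all lower: Kif20a, Gins2, Ccna2, Aurka, Birc5 and the ubiquitin-conjugating enzyme Ube2c. Shares of 4.35% lower and 4.88% higher were found over all genes, and none passed (0%). The members' median was -0.33, with 7 of 40 above 0, against -0.0128 over all genes. Kif20a was at 3.36, 3.77 and 2.28 CPM, and DE 2 at 3.73 lies within that range. Gins2 was at 2.76, 2.07 and 1.08 CPM (32, 33 and 9 reads) against 3.82, 3.28 and 3.33 CPM in DE, with no overlap. Their changes were -0.84 ± 0.298 and -1.21 ± 0.456 (edgeR, adjusted p 0.526 for both). For 6 members (15.0%) every DE+PFD+RIC library was below every DE library, as for 12.8% of all genes. Without DE 1 the members' median was -0.14. Within October it was -0.29.

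**Figure D4:**
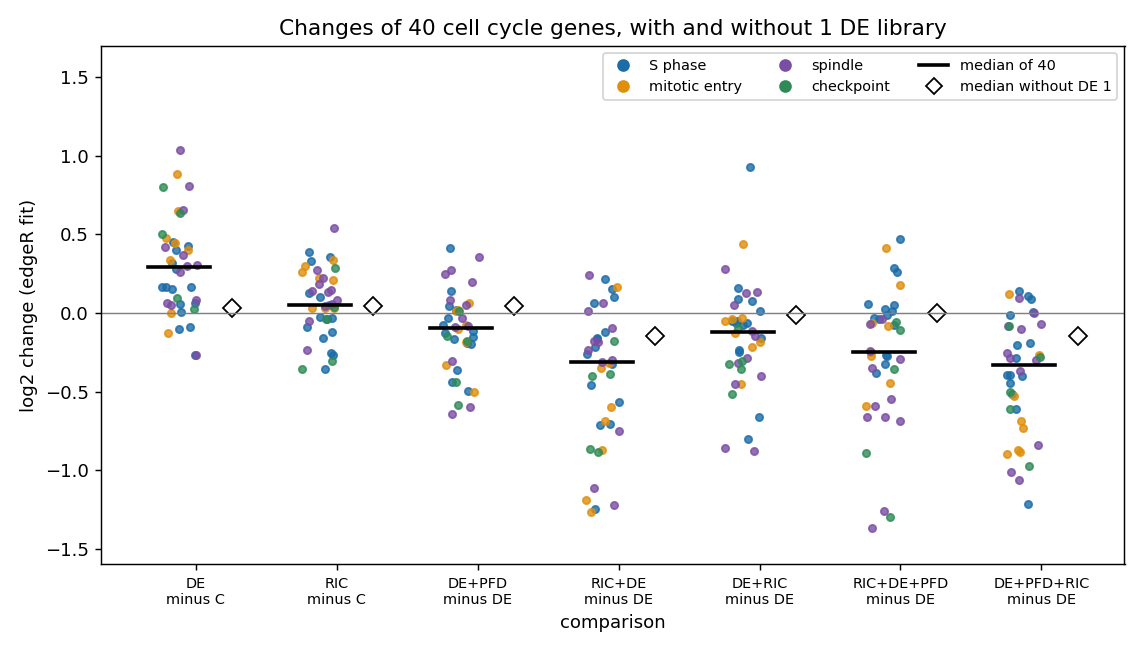
Log2 changes of the 40 genes in the 7 comparisons with C or DE, each point a gene coloured by role, with the median as a bar and the median without DE 1 as a diamond. The DE minus C median goes from 0.29 to 0.03 without that library, and the 5 medians against DE all move up.

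**Figure D5:**
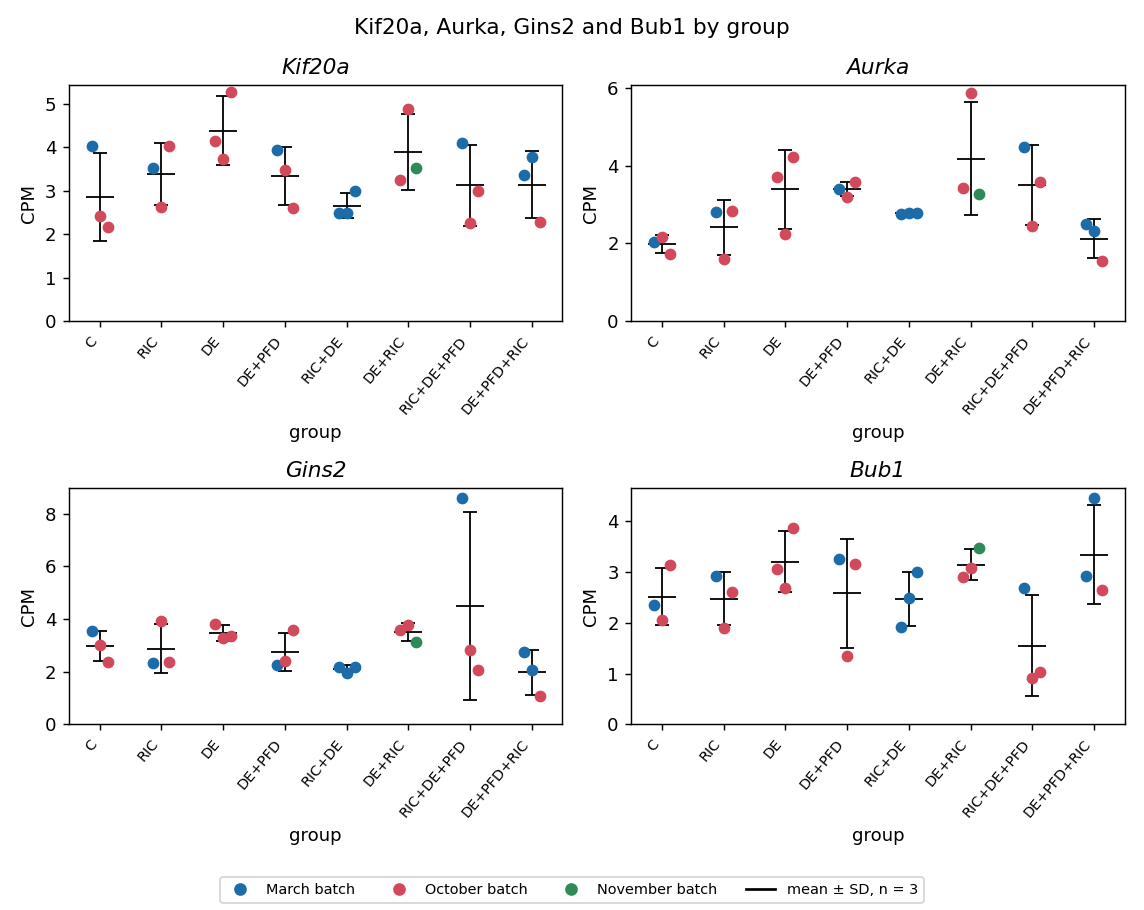
CPM of Kif20a, Aurka, Gins2 and Bub1 by group, each point a library coloured by batch, with the mean and SD over 3 libraries in black. Gins2 at 8.59 CPM in RIC+DE+PFD 1 stands above the other 23 libraries, and Bub1 is lowest in the other 2 libraries of that group.

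Whether pirfenidone acted differently with conditioning was tested as an interaction. For preconditioning, 8 members (20.0%) were higher and 1 (2.5%) lower at an unadjusted p under 0.05, against 18.2% and 9.0% of all genes. None passed in edgeR (0%; smallest adjusted p 0.0742). The contrast takes in RIC+DE, all of March, and DE, all of October. It therefore also rests on the batch term, fitted in groups that hold both dates. The smallest p-values were those of Pcna at 1.19 ± 0.325 (edgeR, adjusted p 0.0742) and Gins2 at 1.80 ± 0.600 (edgeR, adjusted p 0.0812). Pcna was at 160.2, 77.5 and 82.7 CPM in RIC+DE+PFD, and Gins2 at 8.59, 2.81 and 2.07 CPM, with RIC+DE+PFD 1 far above its partners in both. Without that library the values were 0.55 and 0.69, and with the gene length trend removed they were 0.68 and 1.81. In this contrast 5 of 5 skeletal muscle markers were lower (median -5.24) and 3 of 5 lung epithelium markers higher (1.39) at an unadjusted p under 0.05 (edgeR), and their part was not tested. Pcna passed under 4 of the alternative settings that keep that library, DESeq2 among them, and also when RIC 1, RIC+DE+PFD 2 or RIC+DE+PFD 3 was left out.

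For perconditioning, 1 member (2.5%, Aurka) was lower and 0 higher, against 1.18% and 1.50% of all genes, and none passed (0%). Aurka was at 3.40, 3.21 and 3.58 CPM in DE+PFD, at 3.42, 5.86 and 3.27 CPM in DE+RIC, and at 2.50, 2.32 and 1.56 CPM in DE+PFD+RIC. Every DE+PFD+RIC library lay below every library of DE+PFD and of DE+RIC, a pattern whose share over all genes was not counted. Aurka in DE ran from 2.235 to 4.211 CPM and overlapped DE+PFD+RIC. Its interaction was -1.22 ± 0.461, and that of cyclin E2 (Ccne2) was -1.23 ± 0.675 (edgeR, adjusted p 1 for both). Ccne2 was at 1.23, 3.35 and 0.881 CPM in DE+RIC and at 3.53, 1.32 and 0.959 CPM in DE+PFD+RIC. Without DE+RIC 2 the 2 values were -0.81 and -0.39.

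The batches were compared as March minus October with group in the model. In that fit 5 members (12.5%) were higher in March at an unadjusted p under 0.05 and 0 lower, against 7.73% and 7.09% of all genes. No member passed in edgeR, and 1 gene of all tested did (0.00572%). The members' median was 0.18, beside 0.0215 for all genes. Kif20a led at 0.52 ± 0.179 (edgeR, adjusted p 0.185), followed by Ccne2 at 0.80 ± 0.293 (0.209), Nusap1, a spindle protein, at 0.47 ± 0.190 (0.257) and Ccna2 at 0.44 ± 0.206 (0.325). In the October libraries Nusap1 ran from 1.91 to 4.67 CPM and Ccna2 from 3.09 to 9.39 CPM. In March they ran from 3.46 to 5.51 and from 4.39 to 8.34 CPM.

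Other genes of the pathway gave no call in any comparison in edgeR's fit with the batch term. DESeq2 called, in the interaction with preconditioning, 1 other replication gene (Gins4), 3 other mitosis genes (Bub3, Cdca3 and Cks2), 2 inhibitors (Cdkn2c and Cdkn2d) and 1 G1 gene (Cdk4), together with Cdk4 in the test of any difference among the groups and Ect2, Ccng1 and Tfdp1 in March minus October. Of 31 other replication genes tested, 1 had an unadjusted p under 0.05 in the F test, Gins4 (edgeR, adjusted p 0.29), and of 45 other mitosis genes 3 had, with Bub3 smallest (0.307), against 14.4% of all genes. Among 14 CDK inhibitors, pocket proteins and antiproliferative genes the smallest was Cdkn2d (0.322), among 16 E2F, DREAM and MuvB genes Lin37 (0.396), and among 11 G1 cyclins and regulators Cdk4 (0.279). Each list's gene of smallest p had its highest CPM in RIC+DE+PFD 1, Cdk4 at 265.5 CPM against 64.1 to 123.1 in the other libraries. In DE against C the medians were 0.06 for other replication genes, 0.11 for other mitosis genes, -0.08 for the inhibitors, -0.03 for the E2F group and -0.03 for the G1 group. The members' median of 0.29 stood beside these with DE 1 included. In the interaction with preconditioning, 9 of 31 other replication genes were higher at an unadjusted p under 0.05 (edgeR) and 0 lower, with a median of 0.71, against 18.2% and 9.0% of all genes. There 8 of 45 other mitosis genes were higher and 2 lower (median -0.10), and 6 of 14 inhibitors higher and 1 lower (0.04). The E2F list had 2 higher and 1 lower of 16 (0.03), and the G1 list 1 higher and 1 lower of 11 (-0.00104). Without RIC+DE+PFD 1 the median of the other replication genes was 0.11.

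Members with and without CHR letters were set side by side. In DE against C the 19 with CHR letters had a median of 0.31 and the 13 without 0.17. In RIC+DE+PFD against DE they had -0.29 and -0.07, and in RIC+DE against DE -0.32 and -0.31. Most CHR members belong to the mitotic roles, so letters and role cannot be told apart.

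For 13 members, exons overlap another gene in the GRCm38 annotation, 11 of them on the opposite strand, where the strand setting of the counting matters. Kif20a overlaps Cdc23, Gins2 overlaps Gse1, Mcm7 overlaps Ap4m1 and Cops6, and Ube2c overlaps Tnnc2, a troponin of fast skeletal muscle. Ube2c was at 3.33 and 3.69 CPM in the 2 libraries rich in muscle markers and at 3.84 CPM in RIC+DE 2. The part of these overlaps in the counts was not tested.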

How the data were processed

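The authors deposited 1 table of whole-number read counts per gene for 24 libraries, with no scaling. Per the labels' protocols, poly(A) RNA from lung kept in RNAlater was made into libraries with a strand-specific step. The submitters' processing notes name FastQC 0.12.1, fastp 0.23.4, STAR 2.7.11b, featureCounts, R 4.4.1, DESeq2 and the build GRCm39. Not given in the sources used here were the annotation release, the strand setting, the treatment of multiply mapped reads and what the batch date marks.

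Symbols and exon lengths came from a GRCm38 annotation matched by gene identifier: 51486 of 78275 genes, with 98.45% of counts. edgeR 4.0.16 in R 4.3.3 was run on the counts (filterByExpr, TMM, quasi-likelihood F tests) on all 24 libraries, with terms for batch and group. Benjamini-Hochberg adjustment ran over all 17490 genes, and an adjusted p under 0.05 was the threshold. Errors of log2 changes are standard errors, and deviations from the median library used a prior count of 2. Fitted changes are given for members past the threshold, otherwise for the 2 of smallest p in each comparison and the 4 in the F test and the batch comparison; Mki67, Top2a, Pcna and Mcm2 are added as standard readouts, and for each pathway list the gene of smallest p in the F test. Members named by role or by overlap were chosen after their values were seen. The members, lists and tests were chosen with earlier results of these data known. DESeq2 1.42.0, other filters, scalings and designs, and leaving out each library were the alternatives; those for role and pathway lists were chosen after seeing the data.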

Additional observations from a re-analysis of the deposited data

How the results depend on the processing

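Of 772 alternatives to 22 log2 changes of named members, 761 kept direction and side of the threshold, 11 moved past it and 0 reversed. These members were named for their small p in the same data, and many alternatives leave out only 1 library. Kept direction was therefore likely beforehand. Sizes still varied: leaving out 1 library moved Mcm6 in RIC against C between -0.397 and -0.0137. The 140 alternatives to 4 members' F tests, which have no direction, stayed on the same side. Reads per library were 1 to 15 for Ttk and 3 to 31 for Hmmr. Same-numbered libraries of different groups gave r from -0.389 to 0.412 (84 pairs, 16 over 0.1). Differently numbered ones gave -0.383 to 0.43 (168 pairs, 45 over 0.1). No pairing by number was seen, which a check on 3 libraries per group cannot exclude. The cause of the changes below was not tested.

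Genes past the threshold, where edgeR with the batch term gave 0 in each comparison, were as follows. With DESeq2 they were 16 for DE against C, 2 for RIC against C, and against DE 15 for DE+PFD, 55 for RIC+DE, 12 for DE+RIC, 64 for RIC+DE+PFD and 16 for DE+PFD+RIC, with 1692 for the interaction with preconditioning, 8 for that with perconditioning and 1051 in the F test. With no filter on low counts they were 199, 63, 180, 1129, 229, 347, 306, 2179, 164 and 2792 in the same order. With no batch term they were 102 for RIC+DE, 3 for DE+RIC, 9 for RIC+DE+PFD, 8 for DE+PFD+RIC, 1653 for the interaction with preconditioning and 94 in the F test. The compared groups alone gave 3784 for RIC+DE, 7 for RIC+DE+PFD and 1308 for the interaction with preconditioning. October alone gave 1 for DE+RIC, 41 for RIC+DE+PFD, 1 for DE+PFD+RIC, 1 for the interaction with perconditioning and 5 in the F test. With the November library counted in October, there were 2 for DE+RIC and 4 in the F test. A replicate block in place of batch gave 30 for RIC+DE, 1 for DE+RIC and 44 in the F test, and the replicate block with batch gave 16 for RIC+DE, 6 for the interaction with preconditioning and 18 in the F test.

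March minus October, with 1 gene, gave 513 with DESeq2, 317 with no filter, 18 with a filter of CPM 1 in 3 libraries, 13 with November in October, 0 with the replicate block, 2477 without DE 1 and RIC+DE+PFD 1, and 162 with the gene length trend removed, an alternative chosen after seeing the data.

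Members past the threshold were 2 for RIC+DE against DE with those groups alone (Birc5 and Pcna), and 1 (Pcna) for the interaction with preconditioning under DESeq2, no filter, no batch term, or those groups alone. March minus October gave 1 (Top2a) without DE 1 and RIC+DE+PFD 1. Members' medians without both libraries were 0.0426 for DE against C, and against DE 0.0589 for DE+PFD, -0.139 for RIC+DE, -0.0928 for RIC+DE+PFD and -0.147 for DE+PFD+RIC. October alone gave 0.214 for RIC against C.

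Leaving out 1 library at a time, genes past the threshold ranged from 0 to 16 for DE against C, 0 to 13 for DE+PFD, 0 to 54 for RIC+DE, 0 to 14 for DE+RIC, 0 to 36 for RIC+DE+PFD, 0 to 19 for DE+PFD+RIC, 0 to 2879 and 0 to 2 for the interactions with preconditioning and perconditioning, 0 to 2317 for March minus October and 0 to 84 in the F test. The highest counts came without DE 2, except without RIC+DE 2 for RIC+DE and the F test, RIC+DE+PFD 2 for the first interaction and RIC+DE+PFD 1 for the batches. Members ranged from 0 to 5 in the interaction with preconditioning (Birc5, Gins2, Pcna, Tyms and Ube2c without RIC+DE+PFD 2). Their medians ranged from 0.029 to 0.406 for DE against C, -0.059 to 0.195 for RIC against C, -0.252 to 0.0442 for DE+PFD, -0.482 to -0.145 for RIC+DE, -0.29 to -0.00769 for DE+RIC, -0.348 to -0.000492 for RIC+DE+PFD, -0.499 to -0.144 for DE+PFD+RIC, 0.0111 to 0.27 for the interaction with preconditioning, -0.272 to -0.0236 for that with perconditioning and 0.142 to 0.256 for March minus October.

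October alone could not be fitted for RIC+DE, the interaction with preconditioning or the batches, and the compared groups alone were not run for the batches or the F test.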
